A study of Mus musculus with 4 samples.

Results

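The AP-1 and immediate-early factors described here are 10 genes, taken by their symbol from the 30360 genes of a single-cell RNA count table of mouse colonic organoids. They are the FOS family (Fos, Fosb, Fosl1 and Fosl2), the JUN family (Jun, Junb and Jund), and Atf3, Egr1 and Ier3. Each symbol matched 1 gene of the table, and the rule uses no measured value. The members were, however, chosen with earlier results of these data known. The organoids are gel cultures started from pieces of distal colon of wildtype mice and of Tnfr2-/- mice, which carry a deletion of the gene for tumor necrosis factor receptor-2 (TNFR2, gene Tnfrsf1b) in all tissues (strain B6.129S2-Tnfrsf1b tm1Mwm/J, with C57BL/6 as wildtype, per the study's methods). Per the labels the mice were 16 weeks old, an age that differs from the one in the study's methods. Treated cultures were kept with 20 ng/ml of TNF, the cytokine that binds this receptor, between days 1 and 6 after passage 5, the others with vehicle (called untreated), and on day 7 all were dissociated with TrypLE and depleted of apoptotic cells. All cultures grew in Matrigel under IntestiCult medium. The 4 groups are the untreated wildtype, the wildtype with TNF, the untreated Tnfr2-/- and the Tnfr2-/- with TNF, and each is 1 library of 1 culture.

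FOS and JUN proteins are basic leucine zipper (bZIP) transcription factors that bind DNA as pairs, together called AP-1. JUN proteins can pair with each other or with a FOS protein, whereas FOS proteins need a JUN partner, and Atf3 encodes a related bZIP factor that often represses its targets. Many of these genes, though not all, are called immediate-early. Signals through MAP kinases raise the RNA of such genes within minutes without new protein synthesis, and the RNA is short-lived. TNF activates both the JNK branch of these kinases and NF-kB through its receptors. In the intestine, AP-1 is known from crypt cell proliferation, wound repair and the response to stress, and enzymatic dissociation of tissue is itself known to raise many of these RNAs.

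The promoters of 4 members are shown. Fos and Atf3 were chosen from the members whose TNF differences had opposite signs in the genotypes. Jun was taken from the JUN family, whose members differed among themselves with TNF, and Ier3 from the members without the opposite signs. The sequences are RefSeq's, on GRCm38.p6, read 5′ to 3′ on the strand of the gene up to the base before its start. Capitals mark matches to motifs of factors known to bind such promoters. The motifs searched on both strands were TGANTCA (AP-1), TGACNTCA (the longer site of JUN and ATF pairs), TTACGTCA, TGACG (the core of a CREB or ATF site), the CArG box of serum response factor and the kappa-B site of NF-kB, where TGACG lies within TTACGTCA read on the other strand and within TGACNTCA when N is G. The letters were chosen with these sequences in view.
Fos, chr12:85473640-85473889, plus strand: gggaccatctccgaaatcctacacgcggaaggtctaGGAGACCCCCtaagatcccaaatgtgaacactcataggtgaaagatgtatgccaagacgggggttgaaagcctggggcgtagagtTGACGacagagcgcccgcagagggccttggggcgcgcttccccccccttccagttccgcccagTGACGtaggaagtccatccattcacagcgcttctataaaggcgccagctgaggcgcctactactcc
Jun, chr4:95052223-95052472, minus strand: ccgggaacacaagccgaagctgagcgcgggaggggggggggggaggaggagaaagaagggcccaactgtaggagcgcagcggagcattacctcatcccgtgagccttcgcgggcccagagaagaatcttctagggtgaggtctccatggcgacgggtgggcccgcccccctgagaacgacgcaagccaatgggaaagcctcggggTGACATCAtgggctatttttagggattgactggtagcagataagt
Atf3, chr1:191183334-191183583, minus strand: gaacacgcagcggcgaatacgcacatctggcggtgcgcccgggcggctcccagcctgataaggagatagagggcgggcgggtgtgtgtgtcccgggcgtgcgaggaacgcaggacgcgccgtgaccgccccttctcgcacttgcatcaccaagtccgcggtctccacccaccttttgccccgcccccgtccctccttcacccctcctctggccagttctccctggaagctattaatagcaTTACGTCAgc
Ier3, chr17:35821463-35821683, plus strand: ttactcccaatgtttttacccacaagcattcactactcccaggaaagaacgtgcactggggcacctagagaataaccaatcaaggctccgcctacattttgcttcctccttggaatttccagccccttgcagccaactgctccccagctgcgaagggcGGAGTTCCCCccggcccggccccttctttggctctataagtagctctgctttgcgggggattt
In Fos the TGACG core stood at -129 to -125 and at -66 to -62 from the start, and a kappa-B match at -214 to -205. Jun held TGACATCA at -45 to -38, Atf3 held TTACGTCA at -10 to -3, which contains TGACG on the other strand, and Ier3 held a kappa-B match at -92 to -83. The window of Ier3 ends where GENCODE M21 starts the gene, some bases before RefSeq's start, and the last 7 bases of the Atf3 window lie in the 5′ untranslated region of a GENCODE transcript, while the rest lies in an intron of a longer one. The Jun window lies in an intron of Junos, a gene on the opposite strand, and the Fos window lies just before its gene. The search covered 250 bases before the RefSeq start in every gene, although the Ier3 run is printed as 221 bases, and of 32851 promoters 6.75% held TGANTCA, 7.49% TGACNTCA, 0.447% TTACGTCA, 17.8% TGACG, 1.47% a CArG box and 7.25% a kappa-B match. TGANTCA and the CArG box were matched in none of the 8 members whose promoters were read, which did not include Fosl1 and Egr1. Of the 4 not shown, Fosb and Junb held a TGACG core, Fosb and Fosl2 a kappa-B match, and Jund none of the 6 motifs. The Fosl2 window (chr5:32136222-32136471) lies inside the gene as placed by GENCODE M21, which starts it at 32135801. The Jund window ends at 70697738, well before the GENCODE start of Jund at 70698949. A match describes letters in this window and is not a measured site.

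The libraries held 980 to 2589 cells, with 44547639 to 87228093 unique molecular identifiers (UMIs, 1 per captured RNA molecule), and 3 cell barcodes occurred in 2 libraries. Levels are UMIs summed over the cells of a deposited class in a library and scaled to a total of 1000000 (CPM), given with an exact 95% Poisson interval that covers counting error only. Where 4 values follow one another, the untreated wildtype comes first, then the wildtype with TNF, then the untreated Tnfr2-/-, and the Tnfr2-/- with TNF last. Differences are in log2(CPM + 1), which understates the change of low genes, and since each group is 1 library, groups could not be tested against each other and all differences are descriptions of these libraries. The authors' 7 epithelial classes held 4172 cells and the 4 mesenchymal classes 1948. Summed epithelial markers (Epcam, Krt8 and 5 others) reached 11570 to 14410 CPM in the epithelium, and mesenchymal markers (Pdgfra, Col1a1 and 5 others) reached 9220 to 15700 CPM in the mesenchyme. Progenitor.1 had 546, 335, 647 and 95 cells and more of the cycling markers (769 to 1208 CPM, against 38.7 to 97.0 in Progenitor.2), and Progenitor.2 had 62, 273, 233 and 716 cells and more of the regenerative markers (6372 to 11860 CPM, against 1328 to 2336). The Progenitor.2 cells of the untreated wildtype stood apart, with a median of 15574.5 UMIs and a mitochondrial share of 9.70%, against 4.21% to 6.14% in the other libraries. The 3′ tags of Tnfrsf1b numbered 851, 783, 109 and 338, and the sources used here do not say whether they lie in the deleted part, so they do not check the genotype.

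All 10 members were detected in every library, and their levels are described over the 27 sums of a class in a library with at least 20 cells, of which 19 were epithelial and 8 mesenchymal. Fos, the founding member of its family, ranged from 36.7 CPM in Mesenchyme-Ptges of Tnfr2-/- TNF to 851 CPM in Secretory-Reg4-Spdef-Lyz1 of wildtype TNF, with a median of 302. Its epithelial sums (124 to 851) and mesenchymal sums (36.7 to 169.7) overlapped through Progenitor.3, the class with the lowest epithelial Fos, at 124 (107 to 143), 162 (143 to 182) and 302 (257 to 352) CPM in the 3 libraries with enough cells. Fosb, a close relative, ranged from 1.75 CPM in Progenitor.3 of wildtype TNF to 139 CPM in the secretory class of Tnfr2-/- untreated. Fosl1, which encodes FRA1, had an epithelial median of 7.45 CPM and no epithelial sum above 20.6 CPM, and its highest sum was 127 CPM in Mesenchyme-Ptges of Tnfr2-/- TNF. In the 27 enteroendocrine cells of Tnfr2-/- TNF it had 0 UMIs, which allows up to 6.15 CPM. Fosl2, which encodes FRA2, ranged from 7.54 CPM in Progenitor.3 of Tnfr2-/- untreated to 104 CPM in Progenitor.2 of Tnfr2-/- TNF.

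**Figure D1:**
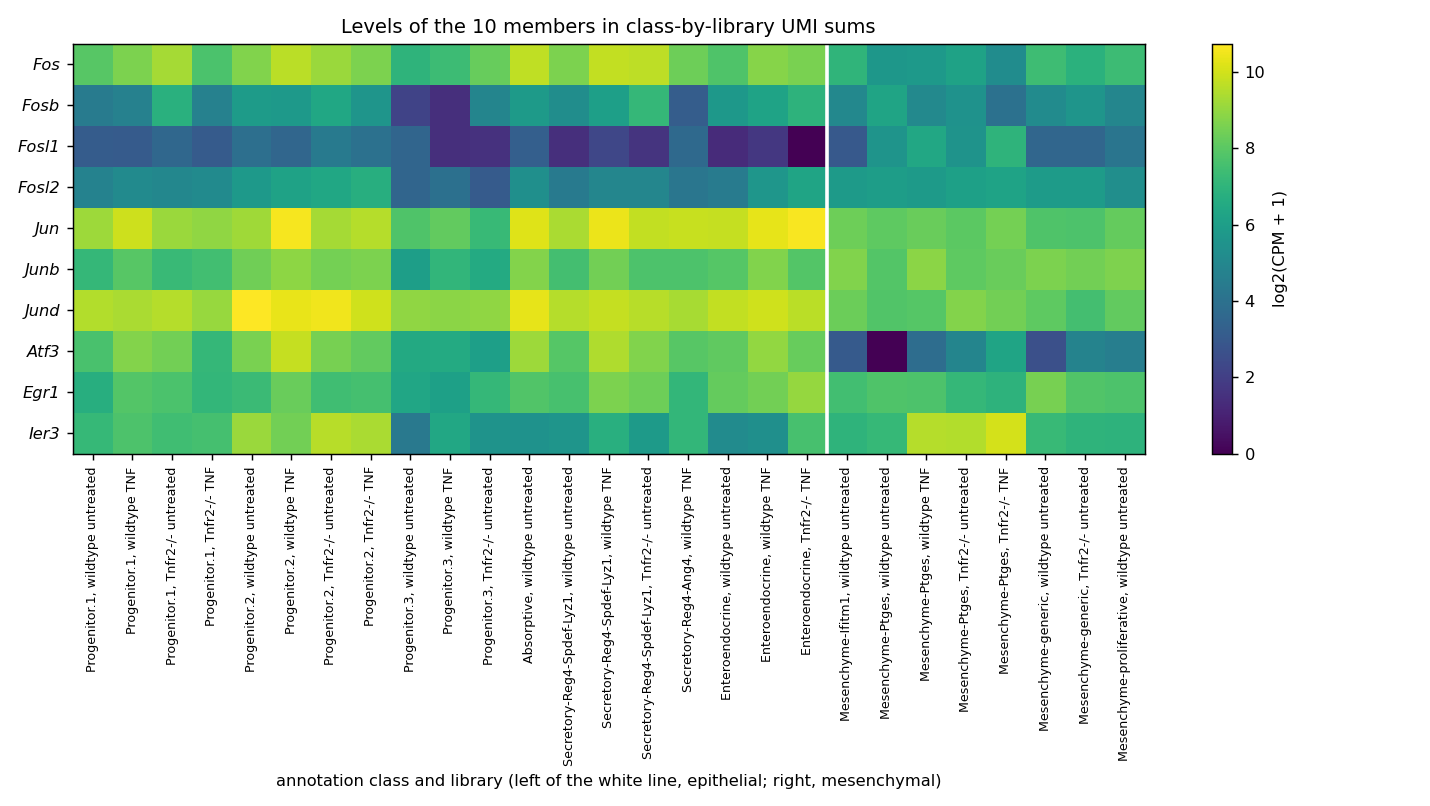
Level of each member (rows, log2 of CPM + 1 by colour) in the 27 sums of an annotation class in a library with at least 20 cells (columns, epithelial to the left of the white line, mesenchymal to the right), 1 library per group; colours are to be compared along a row. Atf3 lies at 66.0 CPM or more in all 19 epithelial sums and at 76.9 CPM or less in all 8 mesenchymal sums, while Fosl1 is highest in Mesenchyme-Ptges.

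Jun and Jund were lower in the mesenchyme than in the epithelium of every library, while Junb was higher there in 3 of the 4. Jun ranged from 149 CPM in Progenitor.3 of Tnfr2-/- untreated to 1575 CPM in the enteroendocrine cells of Tnfr2-/- TNF. The gene Junos overlaps the 5′ part of Jun on the other strand, and the sources used here do not say whether counting used the strand, so reads of both cannot be told apart. Jund, the JUN gene with the steadiest expression in most cells, lay between 461 and 1703 CPM in the 19 epithelial sums and between 182 and 429 CPM in the 8 mesenchymal sums, so the ranges did not overlap. Junb ranged from 64.1 CPM, in Progenitor.3 of wildtype untreated, to 475 CPM in Progenitor.2 of wildtype TNF, and its mesenchymal sums lay inside that range.

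Atf3, Egr1 and Ier3 each had a pattern of their own over the classes. Atf3 was highest in Progenitor.2 of wildtype TNF at 895 (878 to 912) CPM and had 0 UMIs in the 34 Mesenchyme-Ptges cells of wildtype untreated, which allows up to 8.76 CPM. Egr1, a zinc finger factor induced by growth factors, ranged from 67.8 to 527 CPM and was highest in the enteroendocrine cells of Tnfr2-/- TNF. Ier3, which encodes a small protein that modulates survival and MAP kinase signalling, ranged from 19.1 CPM in Progenitor.3 of wildtype untreated to 1060 CPM in Mesenchyme-Ptges of Tnfr2-/- TNF. The sum with the most Ier3 was the sum with the least Fos.

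Between mesenchyme and epithelium of the same library, 3 members were at least 2-fold lower in the mesenchyme in all 4 libraries (Fos, Jund and Atf3) and none was higher in all 4. Of all 10346 genes tested, 10.3% were lower and 14.6% higher by this rule. The authors clustered the cells on the same genes, so the contrast of classes is a description. Mesenchymal Fos was 144, 55.3, 98.8 and 36.7 CPM against 443, 589, 624 and 368 in the epithelium, which gave differences of -1.62, -3.39, -2.65 and -3.29. Mesenchymal Atf3 was 8.42 (7.48 to 9.44), 13.7 (11.9 to 15.8), 27.1 (20.6 to 35.0) and 76.9 (69.2 to 85.2) CPM against 325, 610.2, 359 and 262, with differences of -5.12, -5.37, -3.68 and -1.76. The Atf3 gap was smallest in Tnfr2-/- TNF, where the mesenchyme also held the most epithelial marker RNA (814 CPM over 7 markers, against 142 to 256 CPM in the other 3 libraries), and the part of such RNA in this value was not tested. For Jund the differences were -1.61, -1.95, -1.69 and -1.42. For Jun they were -1.36, -1.93, -1.33 and -0.99, short of 2-fold in the last library.

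Fosl1 and Ier3 were the members with the higher value in the mesenchyme of every library. For Fosl1 in the untreated wildtype the counting intervals of mesenchyme (8.542 to 10.62 CPM) and epithelium (6.999 to 8.557 CPM) overlapped. The share of all genes higher by sign in every library was not computed. The highest sum of each of these members was that of Tnfr2-/- with TNF in Mesenchyme-Ptges, a class named after the gene of a prostaglandin E synthase. Mesenchyme-Ptges had 46.7 (26.7 to 75.8), 85.1 (80.5 to 89.98), 44.4 (31.3 to 61.2) and 127 (117 to 137) CPM of Fosl1, against 7.75, 7.47, 12.2 and 13.6 in the epithelium. Fosl1 was the single member at least 2-fold higher there in each library, beside 13.7% of 10315 genes, and Fos, Jund and Atf3 were lower in each, beside 10.3%. In the wildtype, Mesenchyme-Ptges was nearly the whole mesenchyme with TNF (304 of 306 cells) and a small part without it (34 of 1430), so in mesenchymal Fosl1 of 9.54, 84.7, 24.8 and 127 CPM the class and the treatment cannot be told apart. The Mesenchyme-Ifitm1 class, with 892 cells in wildtype untreated and at most 1 in the others, had 7.08 (5.99 to 8.30) CPM. Ier3 in Mesenchyme-Ptges was 146 (108 to 192), 749.8 (736 to 764), 716 (659.5 to 776) and 1060 (1031 to 1089) CPM, and in the untreated wildtype Mesenchyme-generic was level with it, at 151 (143 to 159.6) CPM. The untreated wildtype was the low library for Ier3, while for Fosl1 both untreated libraries were low and their counting intervals overlapped. The 34 cells of the untreated wildtype had a median of 5755 UMIs and a mitochondrial share of 16.7%, against 2.79% to 4.15% in the others.

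**Figure D2:**
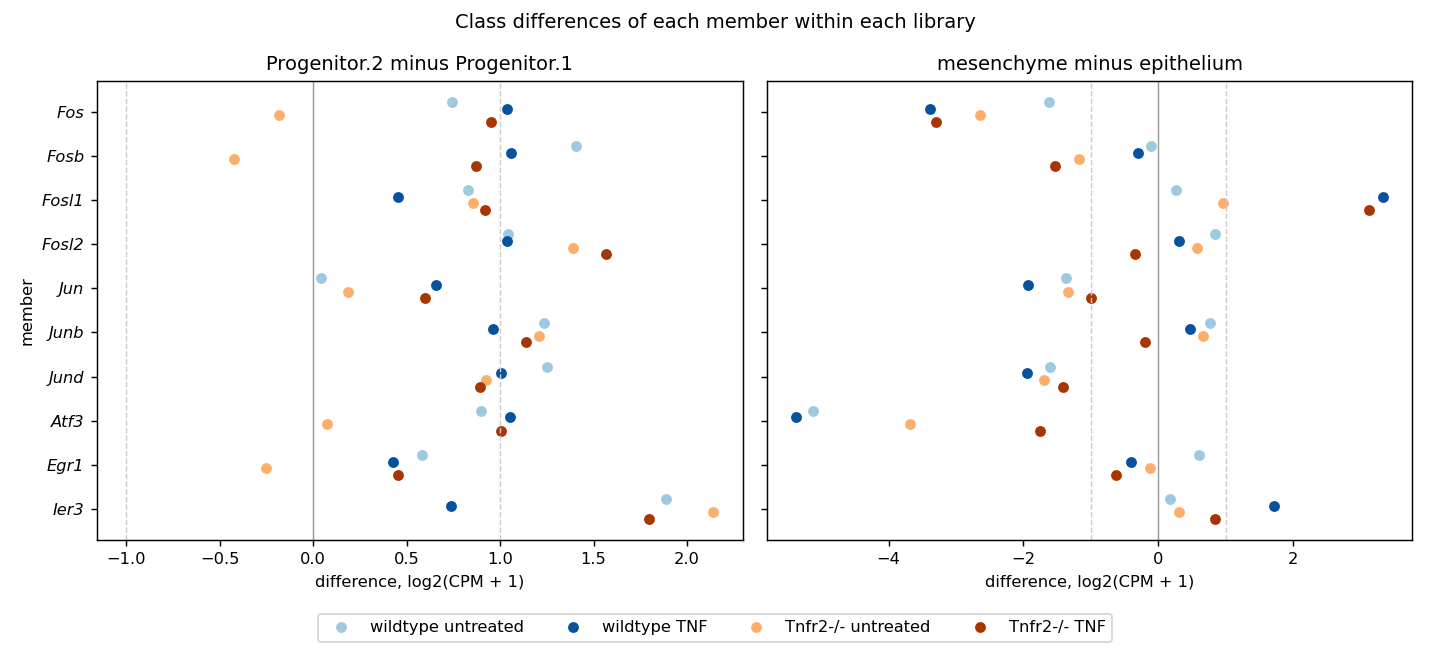
Difference of each member (rows) between Progenitor.2 and Progenitor.1 (left) and between mesenchyme and epithelium (right), in log2(CPM + 1), with 1 point per library coloured by group and dashed lines at 2-fold. Fosl2 lies above 2-fold in all 4 libraries on the left, and Fos, Jund and Atf3 lie below it in all 4 on the right.

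Of the progenitor classes, Progenitor.2 had the higher level of most members. Fosl2 was the member at least 2-fold higher in Progenitor.2 in all 4 libraries and none was lower in all 4, beside 5.86% higher and 8.34% lower of 9379 genes. Fosl2 was 25.8, 34.4, 30.7 and 34.5 CPM in Progenitor.1 and 54.2, 71.6, 82.2 and 104 in Progenitor.2, with differences of 1.04, 1.04, 1.39 and 1.57, where the median of all genes was -0.17 to -0.07. Fosl2 and Junb lay close to this limit, and the count was 0 or 2 under some other settings. Junb differed by 1.24, 0.96, 1.21 and 1.14 and Jund by 1.25, 1.00, 0.92 and 0.89. Ier3 had the largest difference in 3 of the 4 libraries, at 1.89, 0.74, 2.14 and 1.80, and was short of 2-fold in wildtype TNF, the library where Progenitor.2 had the least Ier3 at 352 CPM. Progenitor.2 had the higher value of Fosl1, Fosl2, Jun, Junb, Jund, Atf3 and Ier3 in every library, though counting intervals can overlap, as for Jun in the untreated wildtype. The share of all genes higher by sign in every library was not computed, so this is not read as a result about the members. The differences were 0.90, 1.05, 0.07 and 1.01 for Atf3, but for Jun only 0.04, 0.66, 0.18 and 0.60 and for Fosl1 0.83, 0.45, 0.85 and 0.92.

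Fos, Fosb and Egr1 broke this order in 1 library. In Tnfr2-/- untreated they were lower in Progenitor.2 than in Progenitor.1, with differences of 0.74, 1.04, -0.18 and 0.95 for Fos. For Fosb they were 1.41, 1.06, -0.42 and 0.87, and for Egr1 0.58, 0.43, -0.25 and 0.45. That library had the highest Progenitor.1 levels of Fos and Fosb of all 4.

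Within Progenitor.1, where the class is held fixed, Fos was 249 (243 to 254), 388 (379 to 397), 631 (623 to 639) and 203 (191 to 216) CPM. The highest library was the untreated Tnfr2-/- and the lowest was Tnfr2-/- with TNF, and no counting intervals overlapped. TNF minus untreated was 0.64 in wildtype and -1.63 in Tnfr2-/-. Atf3 was 203 (198 to 208), 431 (421 to 440.5), 353 (347 to 359) and 139.6 (129.6 to 150.2) CPM, in an order in which wildtype TNF was highest and Tnfr2-/- TNF lowest. Its TNF differences were 1.08 and -1.33. Egr1 was 105 (101 to 109), 233 (226 to 240.0), 208 (204 to 213) and 138 (128 to 149) CPM, highest in wildtype TNF and lowest in wildtype untreated. Its differences were 1.14 and -0.59. For these 3 genes TNF went with a higher level in the wildtype and a lower level in Tnfr2-/-.

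**Figure D3:**
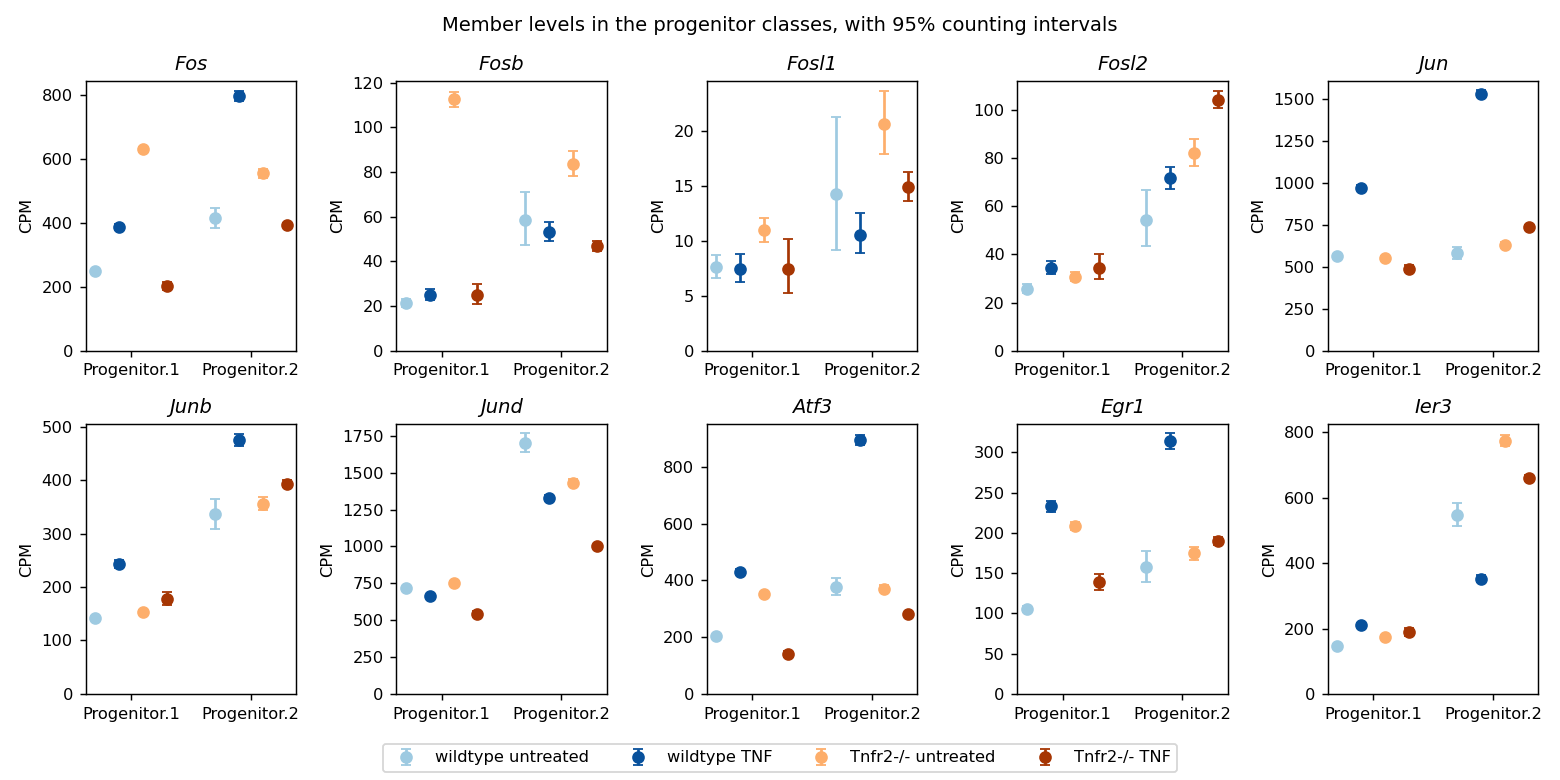
CPM of each member in Progenitor.1 and Progenitor.2 (x axis of each panel) in the 4 libraries (colours), with exact 95% Poisson intervals for counting error, 1 library per group and y axes from 0. In Progenitor.1, Fos and Fosb are highest in Tnfr2-/- untreated, at 631 and 113 CPM, and Atf3 is lowest in Tnfr2-/- TNF, at 139.6 CPM.

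Fosb in Progenitor.1 was 21.4, 25.02, 113 and 25.2 CPM. A single library, Tnfr2-/- untreated, stood above the other 3, whose counting intervals reached 29.9 CPM at most. The TNF difference was 0.21 in wildtype, within counting error, and -2.12 in Tnfr2-/-. Jun was 565 (556 to 574), 970.5 (956 to 985), 553 (546 to 561) and 488 (469 to 508) CPM. Wildtype TNF was its only high library, and its differences were 0.78 and -0.18. Junb was 142 (138 to 146), 244 (236 to 251), 154 (149.6 to 158) and 178 (167 to 190.0) CPM. In both genotypes it was higher with TNF, by 0.78 and 0.21. Jund was 716 (706 to 726), 662 (650.4 to 674), 754 (745 to 763) and 540.0 (520.0 to 560.5) CPM and lower with TNF in both, at -0.11 and -0.48. Neither reached 2-fold.

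Ier3, Fosl1 and Fosl2 differed by less than 0.6 with TNF in either genotype of Progenitor.1. Ier3 was 147 (143 to 152), 211 (204 to 218), 175 (170.5 to 179) and 189 (177 to 201) CPM. Its differences were 0.52 and 0.11, the second within counting error. Fosl2 differed by 0.40 and 0.16 and Fosl1 by -0.03 and -0.51. No member was at least 2-fold apart in the same direction in both genotypes, beside 0.344% higher and 0.344% lower of 9303 genes. In the wildtype pair 2 members were at least 2-fold higher (Atf3 and Egr1) and none lower, beside 1.8% higher and 0.806% lower of all genes. In the Tnfr2-/- pair 3 were at least 2-fold lower (Fos, Fosb and Atf3) and none higher, beside 1.13% lower and 1.06% higher. Counting intervals did not overlap for 7 members that were higher and 1 that was lower in the wildtype, beside 27.2% higher and 16.7% lower of all genes. In Tnfr2-/- they did not overlap for 1 that was higher (Junb) and 6 that were lower, beside 11.5% and 14.6%.

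The pattern of 0.5 or more in wildtype and -0.5 or less in Tnfr2-/- held for Fos, Atf3 and Egr1 in Progenitor.1, beside 41 of 9303 genes (0.441%). A limit of 2-fold in each genotype left Atf3 alone, beside 7 genes (0.0752%), and both limits were chosen after the values were seen. Subtracting the wildtype TNF difference from the Tnfr2-/- one gave -2.27 for Fos, -2.42 for Atf3 and -1.73 for Egr1, while the median of all genes was -0.09. With 1 library per group, the culture and the group cannot be told apart. The Tnfr2-/- TNF library had 95 Progenitor.1 cells of its 980, and the depth of the class was alike in the 4 libraries (medians of 42680 to 46629 UMIs a cell). The median mitochondrial share of the class was not alike, at 2.92%, 3.83%, 4.56% and 5.75%, and its part in the members' differences was not tested. Within this class the absorptive markers summed to 561, 56.8, 162 and 60.8 CPM, the goblet and deep secretory markers to 1152, 1225, 841 and 1395 CPM and the enteroendocrine markers to 42.1, 25.1, 3.70 and 91.8 CPM, and their part in the members' differences was not tested.

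**Figure D4:**
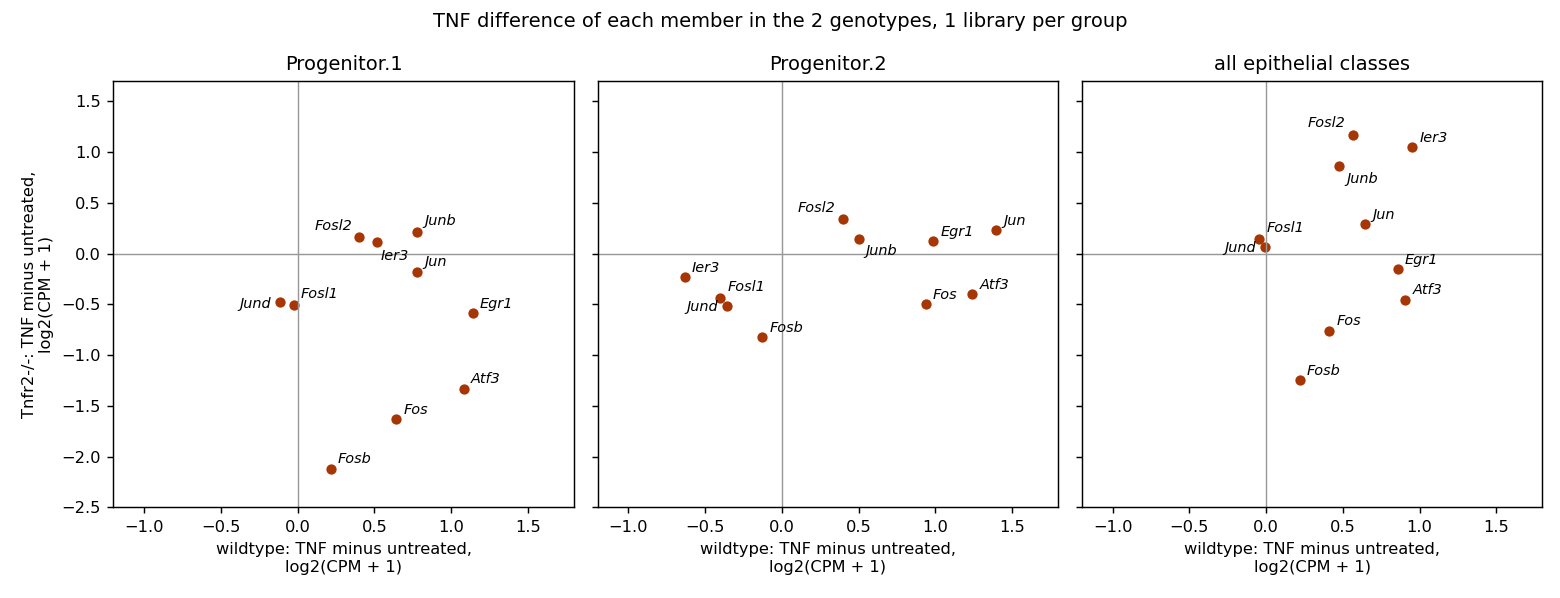
TNF minus untreated in wildtype (x axis) against the same in Tnfr2-/- (y axis), both in log2(CPM + 1), for the 10 members in Progenitor.1, Progenitor.2 and all epithelial classes, 1 library per group. Atf3 and Fos lie to the lower right in every panel, and in Progenitor.1 Atf3 lies at 1.08 and -1.33.

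Progenitor.2 gave the same directions for Fos and Atf3, with larger wildtype and smaller Tnfr2-/- differences than Progenitor.1. Fos was 416 (386 to 448), 798 (783 to 814), 556 (541 to 571) and 393 (387 to 400.0) CPM. Its TNF differences were 0.94 in wildtype and -0.50 in Tnfr2-/-. Atf3 was 378 (349 to 409), 895 (878 to 912), 371 (359 to 383) and 281 (276 to 287) CPM, and its differences were 1.24 and -0.40. Wildtype TNF was the highest library for both, and the other 3 lay closer together. Jun was 581 (545 to 618), 1529 (1508 to 1551), 629 (614 to 645) and 739 (730.1 to 748) CPM and higher with TNF in both genotypes, by 1.40 and 0.23. Egr1 was 158, 314, 175 and 190.1 CPM, with differences of 0.99 and 0.12. Ier3 was 548 (513 to 584), 352 (342 to 363), 775 (758 to 792) and 660.0 (651 to 669) CPM. Unlike Jun and Egr1 it was lower with TNF in both genotypes, at -0.63 and -0.23.

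No member passed 2-fold in both genotypes in Progenitor.2, beside 0.615% higher and 0.537% lower of 8946 genes. In the wildtype pair Jun and Atf3 did by being higher, beside 5.06% higher and 3.12% lower of all genes, and in the Tnfr2-/- pair none did, beside 0.85% and 1.21%. The median of the 10 members was 0.45 in wildtype and -0.32 in Tnfr2-/-, beside 0.00 and -0.12 for all genes. The wildtype pair rests on the 62 untreated cells with the low depth and high mitochondrial share given above, and their part in these differences was not tested. Markers of other epithelial types also moved within Progenitor.2: the 8 goblet and deep secretory markers summed to 60.8, 959.6, 128 and 2142 CPM, 6 of 6 tested being at least 2-fold higher with TNF in both genotypes, and the 6 absorptive markers to 4219, 2075, 918 and 689 CPM. The 5 enteroendocrine markers summed to 0.596, 9.62, 6.16 and 138 CPM, and the part of these cells in the members' differences was not tested either. Fosl2 was 54.2, 71.6, 82.2 and 104 CPM, Junb 336, 475, 356 and 393 CPM and Jund 1703, 1329, 1431 and 1002 CPM. Of these, Fosl2 and Junb were higher with TNF in both genotypes and Jund was lower in both, but the wildtype difference of Fosl2 (0.40) was -0.02 as a mean over the cells' own CPM.

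Over all epithelial classes the sums also carry the make-up of the cultures, in which Progenitor.2 was 62 of 1128, 273 of 1163, 233 of 1023 and 716 of 858 epithelial cells. Epithelial Fos was 443 (437 to 449), 589 (582 to 596), 624 (617 to 631) and 368 (362 to 374) CPM. Epithelial Atf3 was 325 (320.5 to 330.5), 610.2 (603 to 618), 359 (354 to 364) and 262 (257 to 267) CPM. Their TNF differences were 0.41 and -0.76 for Fos, and 0.90 and -0.45 for Atf3. Fos and Atf3 thus kept the opposite directions seen in both progenitor classes. Ier3 was 116 (114 to 119.5), 226 (222 to 231), 283 (279 to 288) and 587 (579.9 to 595) CPM, and higher with TNF by 0.95 and 1.05. Fosl2 was 30.2 (28.7 to 31.8), 45.1 (43.1 to 47.2), 41.1 (39.4 to 42.9) and 94.0 (91.0 to 97.1) CPM, and higher by 0.56 and 1.17. For Ier3 and Fosl2 the Tnfr2-/- difference was larger here than within either progenitor class: with Progenitor.1 and Progenitor.2 weighted equally, that of Ier3 was -0.16 and its wildtype difference -0.30. No member was at least 2-fold apart in both genotypes, beside 1.09% higher and 0.0638% lower of 9399 genes. The median difference of the 10 members was 0.52 and 0.11, beside 0.06 and -0.15 over all genes.

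The differentiated classes could be compared in fewer pairs. In Secretory-Reg4-Spdef-Lyz1 (73, 111 and 63 cells in the first 3 libraries) Fos was 388 (366 to 412), 850.5 (828 to 873) and 816 (779.8 to 853) CPM. Atf3 there was 238 (220.5 to 257), 692 (672 to 712) and 418 (393 to 445) CPM, and Jun was 664 (635 to 695), 1377 (1349 to 1406) and 854 (817 to 892) CPM. In the wildtype pair 8 members were higher with TNF beyond counting error and none lower, beside 9.41% higher and 6.81% lower of 8995 genes. Of these, 5 were at least 2-fold higher (Fos, Jun, Atf3, Egr1 and Ier3), beside 2.65% higher and 0.656% lower. In the enteroendocrine class (33, 31 and 27 cells in wildtype untreated, wildtype TNF and Tnfr2-/- TNF) Fos was 218 (184 to 257), 437 (394 to 483) and 386 (332 to 445) CPM. The Absorptive class had 319 cells in wildtype untreated and 19 or fewer elsewhere, and there Fos was 828 (814 to 842), Jun 1189 (1172 to 1205), Atf3 569.9 (558 to 582) and Ier3 43.0 (39.8 to 46.3) CPM. Secretory-Reg4-Ang4, present in 1 library with 246 cells and a median of 1957.5 UMIs a cell, had 328 (279.9 to 381) CPM of Fos and 137 (107 to 174) of Ier3.

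In Mesenchyme-Ptges 2 members differed at least 2-fold with TNF in both genotypes, Atf3 higher and Fosb lower, beside 2.16% higher and 1.88% lower of 9807 genes. Atf3 had 0, 195, 24 and 367 UMIs, or 13.3 (11.5 to 15.3), 28.8 (18.5 to 42.9) and 76.9 (69.2 to 85.2) CPM in the last 3 libraries. Fosb had 75.9 (49.6 to 111), 32.6 (29.7 to 35.6), 43.2 (30.3 to 59.9) and 14.9 (11.6 to 18.8) CPM, and its differences were -1.20 and -1.48. The 7 epithelial markers, none of them at 0 in all libraries, summed to 58.4, 201, 52.8 and 814 CPM in this class, also higher with TNF in both genotypes, and the 7 mesenchymal markers to 18890, 9963, 11710 and 9220 CPM. Their part in the Atf3 and Fosb differences was not tested. The wildtype pair of both genes rests on 34 untreated cells, and with Atf3 set to the limit that its 0 UMIs allow there, the wildtype difference would be short of 2-fold. Junb was 234, 465, 268 and 314 CPM and Jun 266, 314, 263 and 359 CPM, each higher with TNF in both genotypes and by less than 2-fold. The difference was within counting error for Junb in Tnfr2-/- and for Jun in the wildtype.

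Genotype was compared within each treatment on the same 4 libraries, so its differences hold the same values as those with TNF in another order. In the epithelium Ier3 was the only member at least 2-fold higher in Tnfr2-/- in both treatments, by 1.28 untreated and 1.37 with TNF, and none was lower in both, beside 1.55% higher and 1.59% lower of 9399 genes. Within Progenitor.1 Ier3 differed by 0.25 and -0.16, and within Progenitor.2 by 0.50 and 0.90. With the progenitor classes weighted equally no member was counted. In Progenitor.1 no member passed 2-fold in both treatments, beside 0.441% higher and 0.892% lower of 9303 genes. In the untreated pair 9 of the 10 members were higher in Tnfr2-/- beyond counting error and none lower, beside 34.6% and 21.8% of all genes, with the largest differences for Fosb (2.34) and Fos (1.34). The smallest of the 9 were Junb (0.11) and Jund (0.07), which were -0.19 and -0.06 in cells low in heat shock RNA, and Jund was -0.01 with DESeq2 size factors. With TNF 7 were lower and none higher, beside 18.6% and 14.4%, with the largest for Atf3 (-1.62) and Fos (-0.93). In Progenitor.2 no member passed 2-fold in both treatments, beside 1.55% higher and 1.86% lower of 8946 genes.

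Fosl1 lies on chromosome 19, where many genes of the Tnfr2-/- epithelium were higher. Its genotype difference in the epithelium was 0.59 untreated and 0.79 with TNF. The median of the 356 tested genes of chromosome 19 was 0.54 and 0.30, against 0.13 and -0.14 for the other chromosomes. In Progenitor.1 Fosl1 differed by 0.47 and -0.01, beside chromosome 19 medians of 0.48 and 0.47, and in Progenitor.2 by 0.50 and 0.46, beside 0.51 and 0.46. The Progenitor.2 differences of Fosl1 lay close to the medians of its chromosome.

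Shares of cells with a UMI were taken after each cell was thinned at random to 5000 UMIs (405 shallower cells left out). In Progenitor.1 the share of cells with Fos was 56.0% (51.8 to 60.3), 75.8% (70.9 to 80.3), 81.5% (78.3 to 84.4) and 56.4% (45.8 to 66.6), with exact Clopper-Pearson 95% intervals for counting error. The share with Atf3 was 48.9% (44.6 to 53.2), 69.6% (64.3 to 74.4), 59.0% (55.1 to 62.8) and 37.2% (27.5 to 47.8), in the order of its summed levels. For Fos the lowest shares, of the untreated wildtype and of Tnfr2-/- with TNF, had overlapping intervals. Without thinning the shares were 92.5%, 98.8%, 98.6% and 89.5% for Fos and 83.2%, 93.4%, 89.6% and 80.0% for Atf3. Free RNA can give UMIs in cells that do not express a gene, and mesenchymal cells, the type with the least Atf3, held it in 1.69% (1.09 to 2.51), 7.05% (4.41 to 10.6), 9.30% (4.10 to 17.5) and 15.0% (9.14 to 22.7) of thinned cells (median depth before thinning 22642.5, 48633, 24549 and 37644.5 UMIs a cell, against 37245.5, 30306, 41057 and 37368.5 in the epithelium). The Atf3 shares of Progenitor.1 thus lay above the mesenchymal share in each library. For Fosl1 the share was 2.56% (1.41 to 4.26), 3.88% (2.08 to 6.54), 4.19% (2.78 to 6.04) and 4.26% (1.17 to 10.5) in Progenitor.1 and 8.33% (1.03 to 27.0), 31.4% (26.2 to 37.0), 14.7% (4.95 to 31.1) and 41.7% (32.7 to 51.0) in Mesenchyme-Ptges.

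The median cell of Progenitor.1 moved with the sums. It had 156, 314, 487 and 156 CPM of Fos and 114, 283, 236 and 73.0 CPM of Atf3, in the same order of libraries as the sums, though for Fos the median cells of wildtype untreated and Tnfr2-/- TNF were nearly level. The 5% of cells with the most Fos UMIs held at most 24.6% of them in any library. After thinning, 7 or more of the 10 members were detected in 7.33%, 22.7%, 24.4% and 10.6% of Progenitor.1 cells and in 26.8%, 50.4%, 32.4% and 30.6% of Progenitor.2 cells.

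Over the cells of 1 progenitor class in 1 library, the pairs with the highest correlations were among Fos, Fosb, Jun, Atf3 and Egr1. Spearman's rho over thinned cells was computed in 8 sets of 56 to 710 cells, as a description in sparse counts, and cells of a set share a library. The median rho was 0.37 for Jun and Atf3 (0.25 to 0.54 over the 8 sets), 0.32 for Fos and Atf3 (0.19 to 0.45), 0.30 for Fos and Jun (0.14 to 0.57), 0.28 for Fos and Fosb (-0.03 to 0.42) and 0.27 for Fos and Egr1 (0.16 to 0.45). Ier3 had medians between -0.08 and 0.13 with the other 9, and Fosl1 between -0.08 and 0.07. Medians this close to 0 are not read as findings. They combine the classes: in every Progenitor.2 set Ier3 was below 0 with Fos, Fosb, Jun and Egr1 and above 0 with Jund. The furthest values were -0.438 with Jun, -0.365 with Egr1 and 0.337 with Jund, all in the 56 cells of the untreated wildtype. In Progenitor.1 Ier3 was above 0 with Egr1 in every set (0.01 to 0.10), and with Fos, Fosb and Jun it had both signs.

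**Figure D5:**
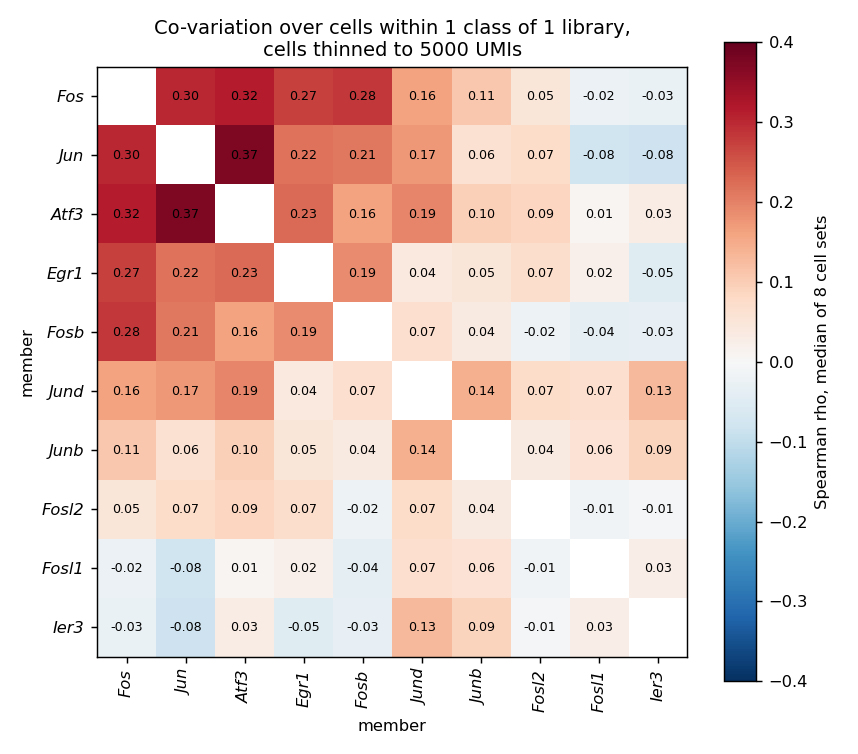
Median Spearman rho of each pair of members over the cells of a progenitor class in a library (8 sets, cells thinned to 5000 UMIs). The pairs among Fos, Jun, Atf3, Egr1 and Fosb lie between 0.16 and 0.37, while those of Fosl1 lie between -0.08 and 0.07. Jund lies in the lower part of the first range with Atf3 (0.194), Jun (0.175) and Fos (0.161).

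Over the 27 sums, which share libraries and differ in depth, the levels of Jund and Atf3 were the most alike of all member pairs (Pearson r = 0.87 in log2(CPM + 1)), then Fos and Jund (0.81), Fos and Atf3 (0.80), Fosl2 and Junb (0.79) and Fosb and Egr1 (0.78). Fos and Fosl1 ran opposite, at -0.59. Among 10468 genes, the 3 most like Fos were Tcf7l2 (0.87), Iqgap2 (0.86) and Scamp2 (0.86), and the 3 most like Atf3 were Mfsd6 (0.94), Rassf7 (0.94) and Serinc2 (0.93). For Jun they were Atp11b (0.91), Mgat5 (0.89) and Dusp8 (0.88), the last a phosphatase of MAP kinases. For Junb they were Dusp1 (0.87), another such phosphatase, Phf1 (0.85) and 1600012H06Rik (0.85), and for Jund Abcc3 (0.94), Itga3 (0.93) and Ccdc68 (0.93). Fosl1 was most like Akr1b8 (0.86), Ano6 (0.85) and Piezo1 (0.85), and Fosl2 most like Ankrd50 (0.92), Usp32 (0.92) and Sbno2 (0.92). Fosb had Ralgapb (0.83), Kif3b (0.80) and Slc35e1 (0.80), and Egr1 had Irs2 (0.79), Fosb (0.78) and Gbf1 (0.77). Ier3 had Rela (0.89), the gene of an NF-kB subunit, Cars (0.87) and Fam129b (0.86).

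Other genes of the pathway were taken from lists of known members, and the medians are over the tested genes. Of 23 tested among 27 other immediate-early genes, none was at least 2-fold apart with TNF in both genotypes in Progenitor.1, and the medians were 0.36 in wildtype and -0.09 in Tnfr2-/-, beside 0.58 and -0.49 for the 10 members and 0.07 and -0.02 for all genes. Nr4a1, an early-response nuclear receptor, was 7.56, 14.2, 9.56 and 2.15 CPM, the order of libraries seen for Atf3. Sgk1, a kinase gene, was 51.1, 31.5, 129.7 and 80.3 CPM and lower with TNF in both genotypes. Both genes stand at the lower end of this list by mean TNF difference. The Nr4a1 value of Tnfr2-/- TNF is a low one, under the 5 CPM required of the mean. Of 24 tested among 28 other bZIP factors, none was counted either, with medians of 0.20 and 0.23. Maff, a small MAF factor, was 15.0, 30.2, 17.0 and 25.9 CPM. Of 22 kinases and factors upstream of AP-1 none was counted in Progenitor.1 or in the epithelium, and the epithelial medians were 0.24 and 0.13.

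The NF-kB feedback targets are genes that NF-kB itself induces. In Progenitor.1, of 9 tested, 8 were higher with TNF in both genotypes and none lower in both, where 3297 of all 9303 genes were higher and 2635 lower in both. They had medians of 1.22 and 0.59, and none was at 2-fold in both. Relb, an NF-kB subunit gene, was 15.3, 58.0, 22.5 and 38.0 CPM. In the epithelium 2 of 9 were at least 2-fold higher in both genotypes, beside 1.09% of all genes, and Tnfaip3, an inhibitor of the pathway, was 23.6, 58.9, 31.3 and 93.0 CPM. Of 14 tested MAP kinase feedback inhibitors 3 were at least 2-fold higher with TNF in both genotypes in the epithelium, beside the same 1.09%, and none in Progenitor.1, beside 0.344%. Dusp1, the phosphatase of JNK and p38, was 54.7, 139.5, 57.5 and 206 CPM in the epithelium and 24.4, 61.8, 27.5 and 37.0 CPM in Progenitor.1. Of 16 tested genes with known AP-1 sites 7 were at least 2-fold higher in both genotypes in the epithelium and 1 lower, beside 1.09% and 0.0638% of all 9399 genes. Mmp10, a matrix protease gene, was 1.09, 10.8, 1.99 and 13.0 CPM, and Spp1, the lower one, which encodes osteopontin, was 113, 27.2, 31.9 and 12.6 CPM. In Progenitor.1, of 12 tested, none was higher and 1 was lower (Spp1), beside 0.344% each.

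Heat shock genes, which dissociation is also known to raise, were measured beside the members. Their 14 genes summed to 9001, 8321, 9172 and 8363 CPM in Progenitor.1 and to 7094, 4800, 6407 and 6019 CPM in Progenitor.2, and none was at least 2-fold apart with TNF in both genotypes in Progenitor.1. Restricted, after the data were seen, to cells with a heat shock share at or under the epithelial median, the Progenitor.1 contrast of the genotypes (Tnfr2-/- minus wildtype TNF difference) was -2.01 for Fos, -3.47 for Atf3, -1.26 for Egr1 and -0.91 for Jun. These values rest on the cells left, whose number is not given here, and Tnfr2-/- TNF had 95 Progenitor.1 cells before the restriction. All genes spread more widely in these cells. With TNF in both genotypes 223 of 9382 genes were at least 2-fold higher and 102 lower, against 32 and 32 of 9303 in all Progenitor.1 cells.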

How the data were processed

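Single cells of 4 organoid cultures, 1 per group, were measured with 10x 3′ RNA libraries. The authors made the deposited UMI counts per gene and cell with Cell Ranger 5.0.0 on mm10 (per the submitters' processing notes), removed cells under 100 UMIs and doublets of epithelial and mesenchymal cells, clustered the cells in monocle3 with the Leiden method, and deposited the name of each cell's class, the other value used here, with its library. No doublet caller was run here. The table held 6155 cells, of which 35 had no class, and the lowest cell had 894 UMIs. With 1 library per group nothing shows how far cultures of a group differ, and no p-value is given.

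Counts were summed per class and library, scaled to a total of 1000000 (CPM) and compared as log2(CPM + 1). Genes with a mean of at least 5 CPM over the libraries compared were counted by 1 rule, which was a difference of 2-fold or more with 1 sign in both pairs (in all 4 libraries for classes). Class values needed 20 cells. A count of 0 was given the limit of 3 counts. Gene positions came from GENCODE M21, which placed 30317 of the 30360 gene identifiers. The count script was tested on simulated data. Members and lists were chosen with earlier results of these data known. From each list, the genes with the smallest and largest mean difference were eligible to be named. Alternatives were the pseudocount, the minimum level, edgeR 4.0.16 and DESeq2 1.42.0 size factors (factors only), the mean of cells, cell depth, mitochondrial genes, the weighting of classes and the chromosome median. The work used Python 3.11.15 with numpy 2.4.6, scipy 1.17.1, pandas 2.3.3 and matplotlib 3.10.9, and R 4.3.3.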

Additional observations from a re-analysis of the deposited data

Results flagged for a closer look

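For 5 members (Fos, Fosb, Jun, Atf3 and Egr1) the TNF difference was above 0 in the wildtype and below 0 in Tnfr2-/-, each beyond counting error, in 1 population or more. By sign alone, 5 of the 10 members had this pattern in Progenitor.1, beside 2320 of 9303 genes. In Progenitor.2 it was 2 members beside 2340 of 8946 genes, and in the epithelium 4 beside 2618 of 9399. The share of all genes with both differences beyond counting error was not computed, so the count of 5 has no background. With 1 library per group this difference between the genotypes was not tested. Within Progenitor.1 the Tnfr2-/- difference minus the wildtype one was -2.27 for Fos, -2.416 for Atf3, -1.726 for Egr1 and -0.9595 for Jun, beside -0.09 for the median gene. Within Progenitor.2 it was -1.436 for Fos and -1.64 for Atf3, beside -0.11. Over the whole epithelium it was -1.171 for Fos, -1.359 for Atf3, -1.011 for Egr1 and -1.467 for Fosb, beside -0.22. The sign of the epithelial Tnfr2-/- difference of Egr1 (-0.15) depended on the scaling, at 0.01 with edgeR's TMM factors and 0.02 with DESeq2's size factors. The wildtype difference of Fosb in the epithelium (0.22) was -0.24 as a mean over the cells' own CPM and -0.03 with Progenitor.1 and Progenitor.2 weighted equally.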

How the results depend on the processing

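Counts of members at least 2-fold apart were recomputed under 84 alternatives and stayed within 1.5 times their value in 78. Most of the 78 were counts of 0 throughout, for TNF in the epithelium and for TNF and genotype within each progenitor class. The count between mesenchyme and epithelium (3) was 4, with Jun added, under TMM factors, DESeq2 size factors, the mean over cells or without mitochondrial genes. The genotype count in the epithelium (1, Ier3) was 0 with Progenitor.1 and Progenitor.2 weighted equally. The count between Progenitor.2 and Progenitor.1 (1, Fosl2) was 0 with a pseudocount of 10 CPM and 0 with cells of at least 5000 UMIs only, and 2 (Fosl2 and Junb) with edgeR TMM factors, 2 with DESeq2 size factors and 2 with the mean over cells. Of 1286 recomputed member differences, 994 stayed within counting error of the value given (12 of them with the other sign), 253 moved further with the sign kept and 38 moved further with the sign changed, each from a difference short of 2-fold. A difference past 2-fold was reversed in 1: the TNF difference of Ier3 in the Tnfr2-/- epithelium was -0.1615 with the progenitor classes weighted equally, against 1.05. Of the 291 moved values, most were under other scalings (50 with TMM, 53 with DESeq2 size factors and 52 with the mean over cells) and in cells low in heat shock RNA (83), an alternative chosen after seeing the data, as was leaving out the untreated wildtype library from the class contrasts, which left their counts the same. The causes were not tested. No paired analysis was possible because each group has 1 library and no further replicate number. The intervals cover counting error, and how far a second culture of any group would differ is unknown. The 62 Progenitor.2 and 34 Mesenchyme-Ptges cells of the untreated wildtype and the 27 enteroendocrine cells of Tnfr2-/- with TNF are among the smallest sums used.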
